A study of Mus musculus with 22 samples.

Results

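Itpr1, Car8, Calb1 and Cacna1g are 4 genes of calcium release, calcium buffering and calcium entry in cerebellar Purkinje cells (PCs), described here across every library of Tsc1 mutant and control mice. They were chosen by their locus identifiers and make up 4 of the 66494 loci in each of the 2 expression tables. In sorted mutant PCs, Itpr1 was 9.26-fold lower and Cacna1g was 5.39-fold lower than in control PCs, and both passed the study's thresholds, as 1.08% of loci did in that direction (limma adjusted p = 0.394 for each). The Cacna1g call (limma unadjusted p = 0.00949) was lost under other scalings and without any 1 control, where Itpr1 still passed. Car8 was 5.48-fold lower and Calb1 was 3.49-fold lower, and neither passed. Most sorted libraries of the 2 genotypes belong to different submissions. Within the 1 submission that holds both, the log2 differences were smaller, at -1.21 for Itpr1 and -0.89 for Cacna1g, and none of the 4 genes passed. In ribosome-bound RNA, none of the 4 genes passed in any comparison in the main limma fit on log2 values. Itpr1 passed there under some alternative settings, which are given in the closing section. As scaled by the authors, Itpr1 and Cacna1g had lower values in mutants than in controls and near-control values in mutants given rapamycin, differences that were smaller with libraries scaled to equal totals, while Car8 and Calb1 overlapped between genotypes with and without rapamycin.

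PCs are the only output neurons of the cerebellar cortex and are known for very high levels of calcium-handling proteins. Parallel fibre input activates metabotropic glutamate receptors, which raise inositol trisphosphate (IP3) and open IP3 receptors on the endoplasmic reticulum. Itpr1 encodes the type 1 IP3 receptor, the main such release channel of PCs. Car8 encodes a carbonic anhydrase-related protein without enzymatic activity that binds this receptor and lowers its affinity for IP3. Calb1 encodes calbindin, a fast cytosolic calcium buffer that is widely used as a PC marker. Cacna1g encodes the pore-forming subunit of Cav3.1, a T-type calcium channel that opens at low voltage.

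The labels give a C57BL/6 strain background for every sample. According to the methods, control mice were Tsc1+/+ and mutant mice were Tsc1 fl/fl, and both carried L7Cre, in which the Purkinje cell promoter L7 (Pcp2) drives Cre. Mice for sorting also carried L7GFP, which labels PCs for cell sorting, and total RNA was sequenced from 5 control and 5 mutant libraries. The study's caption on the sorting gates names L7Cre for mutants only, so the Cre status of sorted controls is given in 2 ways. Mice for translating ribosome affinity purification (TRAP) carried Rosa26fsTRAP, which gives cells with Cre a GFP-tagged ribosomal subunit so that ribosome-bound RNA can be pulled down. TRAP libraries came from 3 control and 3 mutant samples without rapamycin and from 3 of each genotype with rapamycin, an inhibitor of the kinase mTOR that the TSC1 protein restrains. The labels give neither the age of a mouse nor a dose or schedule of rapamycin, and the methods give 2 ages for sorted mice without assigning them to libraries. According to the methods, TRAP RNA was prepared animal by animal. Sorted controls 144a and 144b share 1 animal number, so their spread may be technical. For sorted PCs the study's main text gives fewer animals of each genotype than the labels give libraries, while a figure caption gives as many. All labelled libraries were used here. The Tsc1 transcript itself was not analysed here.

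The deposited values are estimated fragment counts divided by 1 size factor per library. Sorted libraries held 43.3 to 86.3 M fragments and TRAP libraries 2.47 to 6.38 M. The lowest estimate for any of the 4 genes was 154 fragments in a sorted library and 71 in a TRAP library. The sorted libraries belong to 3 submissions, and only submission MS3005 holds both genotypes, with mutants 167 and 191 and controls 144a and 176. Mutants 61, 74 and 103 are all of submission MS2723, and controls 45, 48 and 144b are all of submission MS2872. For those 6 libraries, genotype and submission cannot be told apart. Of the TRAP libraries, mutant 3 without rapamycin stood apart. Its deposited values summed to 0.861 M, against 3.01 to 5.84 M in the other 11, and its 10 most abundant loci took 40.5% of the total, against 58.3% to 72.6%.

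On GRCm38, Itpr1 (locus XLOC_047129, gene ENSMUSG00000030102.11) lies on chromosome 6 from 108213096 to 108551109 on the plus strand. Its locus is matched to a reference transcript of 62 exons and 9870 bases. Car8 (XLOC_040004, ENSMUSG00000041261.9) lies on chromosome 4 from 8143362 to 8239041 on the minus strand, with 9 exons and 3853 bases in its nearest transcript. Calb1 (XLOC_038515, ENSMUSG00000028222.2) also lies on chromosome 4, from 15881264 to 15908064 on the plus strand, with 11 exons and 4222 bases. Cacna1g (XLOC_010246, ENSMUSG00000020866.17) lies on chromosome 11 from 94408391 to 94474198 on the minus strand, with 38 exons and 8383 bases. The Itpr1 gene spans 4 other annotated genes, 2 of them on the opposite strand, and Car8 spans 2. The kit named in the labels does not keep the strand, so reads from such neighbours cannot be told apart from those of the 4 genes where exons overlap.

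The first comparison asked how total RNA in sorted PCs differs between genotypes. The deposited values of Itpr1 in the 5 controls were 83842, 85392, 146242, 161391 and 175016. In the 5 mutants they were 2854, 4532, 13357, 44865 and 56010. All mutant libraries lay below all control libraries. Controls averaged 16.92 ± 0.51 (SD, n = 5) on the log2(value + 1) scale, and mutants, which spread more widely, averaged 13.71 ± 1.92 (SD, n = 5). Itpr1 fell by 3.21 on this log2 scale (standard error 0.81, 95% interval -5.01 to -1.41, limma unadjusted p = 0.00265). The study's thresholds (fold change above 2, unadjusted p below 0.01) were met in the lower direction by 177 of 16455 loci tested, or 1.08%. A difference without overlap in that direction was seen in 1.39% of these loci. After Benjamini-Hochberg adjustment of the limma p-values, 0 loci were below 0.05 (each of the 4 genes was at 0.394), and 1861 loci were below 0.05 before it.

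Cacna1g was the least abundant of the 4 genes. Control values were 3505, 3790, 4884, 8121 and 10360, and mutant values were 157, 767, 1203, 2543 and 3239. As for Itpr1, the groups did not overlap. Cacna1g fell by 2.43 on the log2 scale (standard error 0.76, 95% interval -4.12 to -0.74, limma unadjusted p = 0.00949). Its p lies just under the threshold, and the call was lost with controls 144a and 144b averaged (limma unadjusted p = 0.0195), without mutant 61 (0.0221) or 74 (0.0167), and without any 1 of the controls 144a (0.023), 144b (0.017), 176 (0.0123), 45 (0.0242) and 48 (0.0135). Other scalings, no filter and a pseudocount of 0.1 moved it to between 0.0101 and 0.0114.

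Car8 and Calb1 differed in the same direction, but their groups overlapped. Car8 values were 32553, 40157, 49672, 56016 and 62892 in controls and 1408, 3430, 8753, 31166 and 35246 in mutants. The highest mutant thus exceeded the lowest control. The log2 difference of Car8 was -2.45 (standard error 0.83, 95% interval -4.31 to -0.60, limma unadjusted p = 0.0146). For Calb1, controls had 14233, 18908, 20217, 23182 and 23617 and mutants had 1825, 2408, 4787, 14076 and 19381. Mutant 167 with 19381 exceeded 2 of the 5 controls. The log2 difference of Calb1 was -1.80 (standard error 0.63, 95% interval -3.21 to -0.40, limma unadjusted p = 0.0169). Without mutant 167 or without mutant 191, all 4 genes passed the thresholds, with Car8 at -2.96 and -2.92 and Calb1 at -2.25 and -2.13. Without mutant 103, Car8 was at -1.80 and Calb1 at -1.40 (limma unadjusted p = 0.0226 and 0.0368), and neither passed. Itpr1 was then at -2.65 and Cacna1g at -1.75, and both passed.

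**Figure D1:**
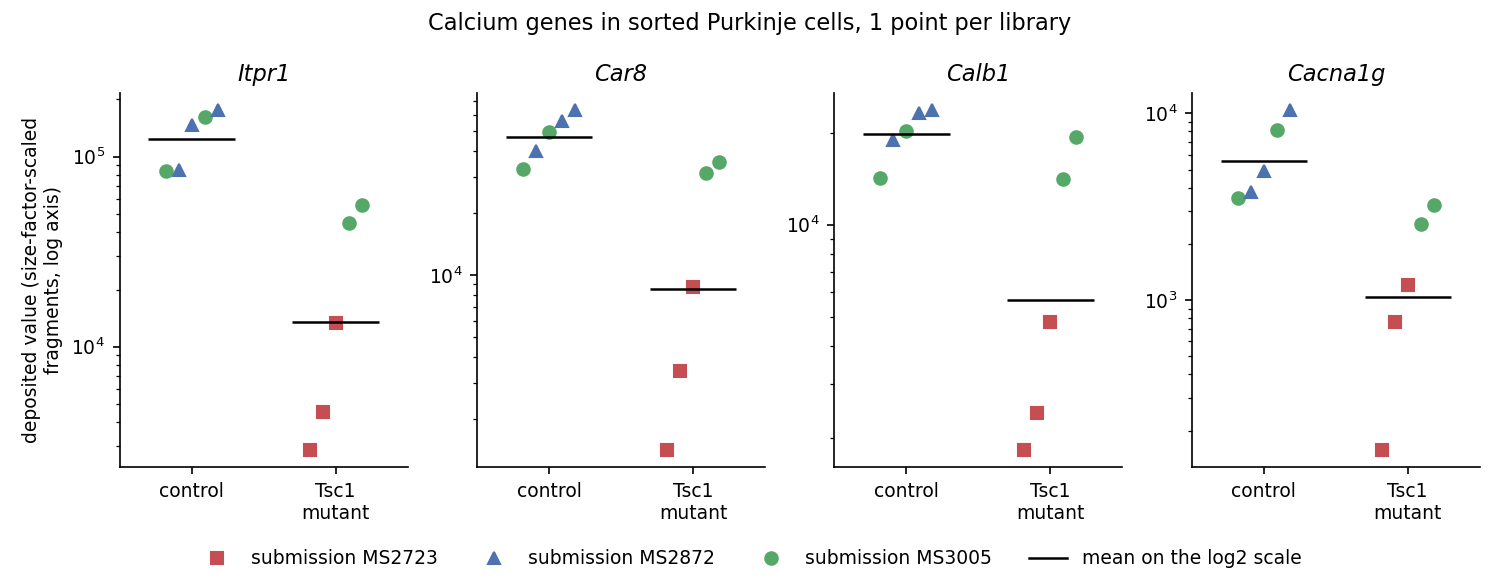
Deposited values of the 4 genes in sorted PCs (log axis), 1 point per library, for 5 control and 5 mutant libraries; the symbol gives the submission and the line the mean on the log2 scale. All mutants lie below all controls for Itpr1 and Cacna1g, and the 3 mutants of submission MS2723 are the lowest libraries for each gene.

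For each gene, the 3 lowest libraries were mutants 103, 61 and 74, in that order. Itpr1 values were 2854 to 13357 in these 3 mutants and 44865 to 56010 in mutants 167 and 191 of submission MS3005. Within submission MS3005, Itpr1 in the 2 controls was 83842 and 161391, above both mutants, and the log2 difference was -1.21 (limma unadjusted p = 0.0366, adjusted p = 1). Cacna1g there was 3505 and 8121 in controls and 2543 and 3239 in mutants, a log2 difference of -0.89 (limma unadjusted p = 0.133). With 2 against 2 libraries, 15.5% of the 16519 loci tested there were lower without overlap and 0.339% passed the thresholds in the lower direction. Car8 and Calb1 overlapped between genotypes there, with log2 differences of -0.28 and -0.04. With submission number as a term in the fit across all 10 libraries, the estimates were the same 4 values, and none of the 4 genes passed the thresholds.

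Because all 4 genes are enriched in PCs, and because fewer PCs in a sample and less of each RNA per PC cannot be told apart in bulk RNA, the genes were also compared with each other inside each library. A ratio within a library does not depend on how libraries are scaled. The Itpr1/Calb1 ratio of deposited values was 4.52, 5.89, 6.19, 7.55 and 7.98 in controls. In mutants it was 1.56, 1.88, 2.31, 2.79 and 3.98. The ratio was lower in 5 of 5 mutants than in any control. Controls had a log2 ratio of 2.66 ± 0.33 (SD, n = 5) and mutants one of 1.25 ± 0.52 (SD, n = 5), which differ by -1.41 (exact two-sided permutation test, p = 0.00794, the smallest p that 5 against 5 libraries can give; 0.0238 adjusted over the 6 pairs of genes).

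The ratio of the receptor to its inhibitory partner, Itpr1/Car8, was likewise lower in every mutant. It was 2.13, 2.58, 2.61, 2.78 and 3.25 in controls and 1.27, 1.32, 1.53, 1.80 and 2.03 in mutants. The difference of the log2 ratio was -0.76 (exact two-sided permutation p = 0.00794, adjusted 0.0238). Both Itpr1 ratios passed the adjusted threshold of 0.05 without any 1 library and with controls 144a and 144b averaged. Within submission MS3005, Itpr1/Calb1 was 5.89 and 7.98 in controls against 2.31 and 3.98 in mutants, and Itpr1/Car8 was 2.58 and 3.25 against 1.27 and 1.80. The groups did not overlap there, but 2 against 2 libraries cannot give an exact p under 0.333.

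The other 4 pairs were less clear. Itpr1/Cacna1g had a log2 difference of -0.78 (exact permutation p = 0.0317, adjusted 0.0476) with overlapping groups, the controls spanning 16.9 to 29.9 and the mutants 5.91 to 18.2. Car8/Calb1 had -0.65 (exact permutation p = 0.0159, adjusted 0.0317), also with overlap, at 2.12 to 2.71 in controls and 0.771 to 2.21 in mutants. The call of both pairs was lost with controls 144a and 144b averaged, at adjusted values of 0.119 and 0.0794. Leaving out mutant 61 or 74 or any single control ended it for Itpr1/Cacna1g, and leaving out control 144a, 144b, 176 or 45 ended it for Car8/Calb1. Car8/Cacna1g did not pass, with a log2 difference of -0.02 (exact permutation p = 0.944), nor did Calb1/Cacna1g with 0.63 (exact permutation p = 0.175).

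**Figure D2:**
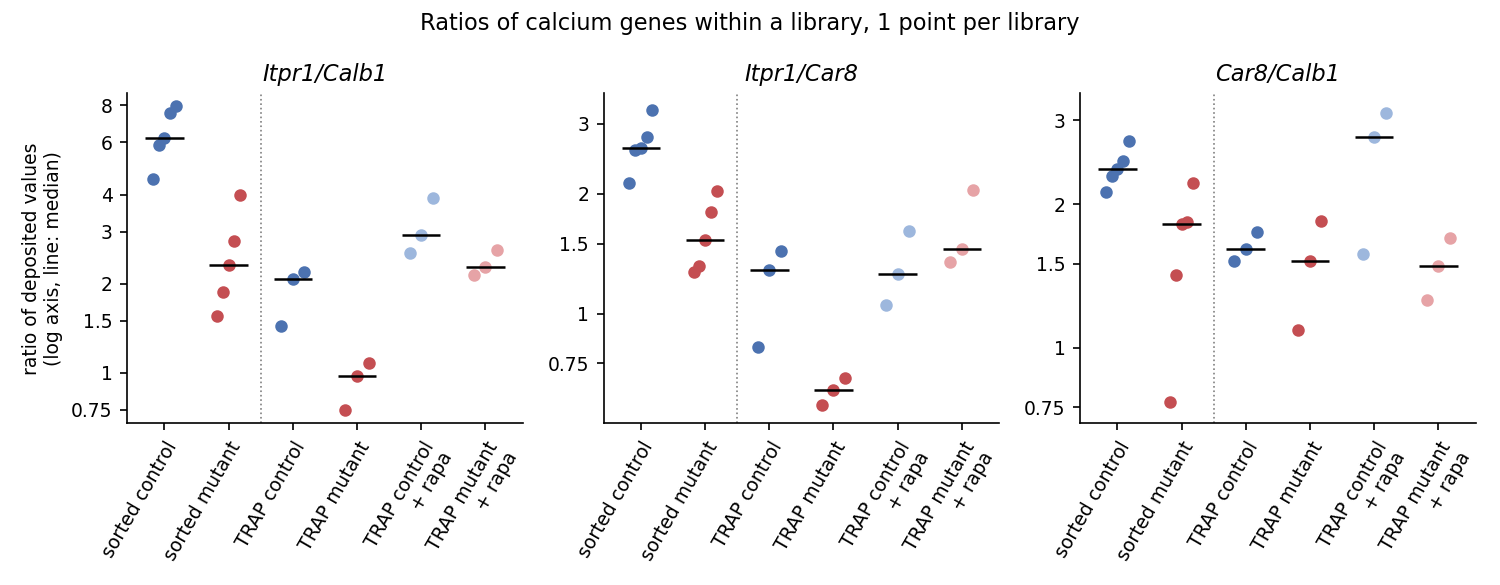
Ratios of deposited values of 2 genes in the same library (log axis), 1 point per library, with the group median as a line; sorted libraries are left of the dotted line and TRAP libraries right of it. Itpr1/Calb1 and Itpr1/Car8 are lower in all sorted mutants than in sorted controls and lower in TRAP mutants without rapamycin than in the other 3 TRAP groups, while Car8/Calb1 overlaps between genotypes in both assays.

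PC identity of the libraries was read from a list of 12 PC markers, of which 10 had a named locus, that is, a locus in the study's lists of changed or selected genes. Their summed level was 250640 to 424206 in sorted controls and 54470 to 312243 in sorted mutants. Mutants 103, 61 and 74 had 54470, 76306 and 111843, and mutants 167 and 191 had 312243 and 279094, above control 176. PC markers were therefore lowest in the same 3 libraries as the calcium genes. Of 9 markers tested, 8 were lower in mutants, against 47.4% of all loci, and 2 passed the thresholds, against 1.08%, Slc1a6 (a glutamate transporter, -2.97) and Gad1 (a GABA-synthesising enzyme, -2.54), with a median log2 difference of -1.79. As the named markers come from genes the study listed, mostly on these same libraries, these counts are not independent evidence of the direction. Skor2 was at 0 in mutant 103. Of 9 astroglial markers 3 had a locus, and their sum was 116380 to 286336 in controls and 216535 to 342706 in mutants, and the 3 did not move together. On the log2 scale the matrix gene Tnc was 1.35 higher in mutants (limma unadjusted p = 0.00322), and 0.63 higher within MS3005 (limma unadjusted p = 0.176). Apoe differed by 0.24 (limma unadjusted p = 0.415) and Gfap by -0.30 (limma unadjusted p = 0.298). The part of these markers in the lower calcium genes was not tested. Expressed as a percentage of the summed PC markers of the same library, Itpr1 was 23.8% to 41.3% in controls and 5.24% to 20.1% in mutants, without overlap. Car8 was 11.2% to 14.8% and 2.58% to 11.3%, Calb1 was 4.95% to 5.97% and 3.16% to 6.21%, and Cacna1g was 1.06% to 2.44% and 0.288% to 1.16%, all with overlap.

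Per kilobase of the nearest reference transcript, the order in sorted controls was Itpr1, Car8, Calb1 and Cacna1g. The median value per kilobase was 14817 for Itpr1 (8495 to 17732) and 12892 for Car8 (8449 to 16323), and these first 2 overlapped. Calb1 followed at 4789 (3371 to 5594) and Cacna1g at 583 (418 to 1236), each below the gene before it without overlap. In sorted mutants Car8 stood above Itpr1, with medians of 2272 and 1353, and Calb1 had 1134, but the ranges of all 3 overlapped. Itpr1 was at the percentile 99.2 of expression among loci tested, Car8 at 97.6, Calb1 at 93.6 and Cacna1g at 67.6. Transcript lengths come from the reference, and the assembled transcripts of Car8, Calb1 and Cacna1g match it only in some of their splice junctions.

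Each gene's profile over the 10 sorted libraries was compared with 1232 other named loci by the mean absolute difference of centred log2 values, where a smaller value means a more similar profile. The 4 genes differed from each other by 0.37 (Car8 and Calb1) to 0.71 (Itpr1 and Calb1), with 0.38 between Itpr1 and Car8 and 0.43 between Itpr1 and Cacna1g. Itpr1 was most like Pkp3 (0.26), Bean1 (0.28) and Plekhd1 (0.30), against a median of 1.57 over all candidates. Car8 was most like Sbk1 (0.19) and Clec2l (0.22). Calb1 was most like Inpp5a (0.14), which removes a phosphate from IP3, and Ppp1r16b (0.19). Cacna1g was most like Kcnab2 (0.21), Cacng2 (0.25) and Cdk5r2 (0.26). The points of each comparison are the same 10 libraries, and the candidates are named loci from lists of genes that the study selected.

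Other genes of the pathway were taken from 7 lists of calcium handling with 84 genes in all, of which 21 besides these 4 had a named locus. In sorted mutants, 21 of the 21 had a negative log2 difference, 9 passed the thresholds in the lower direction and 0 in the higher direction. Of all loci, 47.4% had a negative difference, 1.08% passed in the lower direction and 0.395% in the higher. The median of the 21 was -1.44, against 0.03 over all 16455 loci. Loci have names only where the study listed the gene as changed or selected, mostly on these same libraries, so this count is not independent evidence of the direction. Within submission MS3005, 19 of the 21 had a negative difference, none passed, and the median was -0.42, against 51.9% of all loci below 0 and a median of -0.02.

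All were lower in mutants, and those said to have fallen passed the thresholds. By role, 2 of 4 genes listed for IP3 production and removal fell, the scaffold Homer3 by 2.46, which couples glutamate receptors to the IP3 receptor, and the phosphatase Inpp5a by 2.06. Of 3 calcium pumps, 2 fell, the endoplasmic reticulum pump Atp2a3 by 2.29 and the plasma membrane pump Atp2b2 by 1.37, and the third, Atp2a1, was at -1.89 (limma unadjusted p = 0.0149). Of 6 further buffers and sensors, Hpcal1 fell by 1.83. Of 2 further voltage-gated channel subunits, Cacna2d2, the subunit that goes with P/Q-type channels in PCs, fell by 1.26. Of 2 other entry genes, Orai2 fell by 1.84, and of 2 calcium-dependent kinases, Camk2a fell by 3.23. The 2 further genes of calcium release did not pass, Cabp1 at -1.44 and Ahcyl1 at -0.08, where Ahcyl1 encodes a protein that competes with IP3 at the receptor. Near 0 were also Ncs1 at -0.03 and Plcb3 at -0.17. Gna11, a G protein subunit, was at -0.51 (95% interval -0.84 to -0.18, limma unadjusted p = 0.00608) without overlap between groups, and missed only the fold threshold. Itpr1 had the second lowest difference of all 25 calcium genes, after Camk2a.

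**Figure D3:**
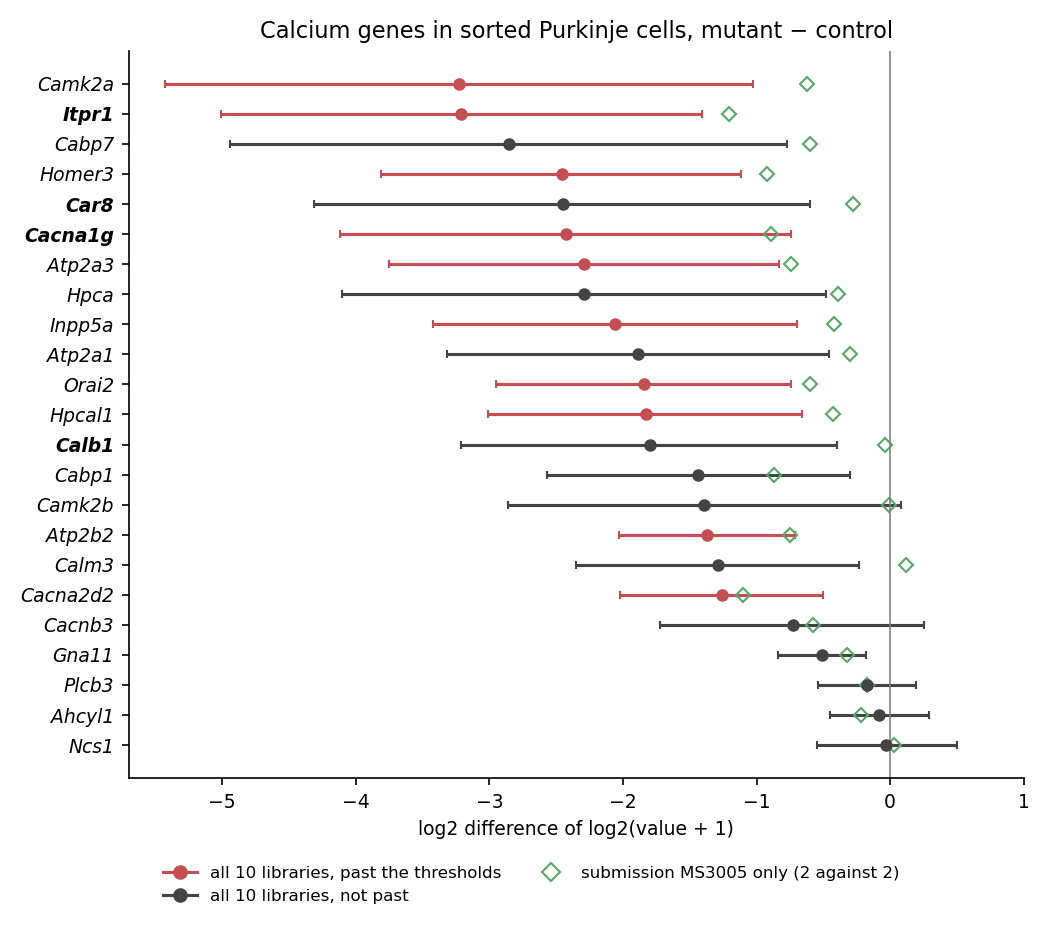
Log2 differences (mutant minus control) of 23 calcium genes in sorted PCs, with 95% confidence intervals from limma over all 10 libraries; red marks genes past the thresholds, bold the 4 genes described here, and open diamonds the difference within submission MS3005 (2 against 2 libraries). Itpr1 is at -3.21 over all libraries and -1.21 within MS3005, and Calb1 moves from -1.80 to -0.04.

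The second comparison asked how ribosome binding differs between genotypes without rapamycin. Itpr1 in TRAP was 2563, 3171 and 3328 in controls and 1426, 1481 and 1503 in mutants. All 3 mutants lay below all controls on this scale. As a percentage of the fragments of its library, Itpr1 was 0.0722% to 0.0883% in controls, 0.0282% and 0.0292% in mutants 1 and 2, and 0.166% in mutant 3, above every control. The place of mutant 3 below the controls therefore rests on the size factor of that library. The log2 difference was -1.03 (standard error 0.32, 95% interval -1.78 to -0.28), a 2.04-fold lower level, which missed the thresholds (limma unadjusted p = 0.0142, adjusted p = 0.551). Cacna1g showed the same arrangement, at 206, 245 and 250 in controls and 118, 139 and 140 in mutants, with a log2 difference of -0.82 (standard error 0.32, 95% interval -1.57 to -0.06, limma unadjusted p = 0.0377). Without mutant 3, the 2 differences were -1.01 (limma unadjusted p = 0.0483) and -0.73 (limma unadjusted p = 0.118). Of 9658 loci tested, 1.01% passed the thresholds in the lower direction and 6.81% had mutants below controls without overlap. The PC marker sum overlapped between these groups, at 4795 to 6379 in controls and 4950 to 5753 in mutants.

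Car8 and Calb1 did not separate the genotypes in TRAP. Car8 was 2208, 2585 and 3114 in controls and 2077, 2344 and 2521 in mutants, a log2 difference of -0.18 (95% interval -0.96 to 0.60). Calb1 was 1451, 1606 and 1775 in controls and 1373, 1547 and 1905 in mutants, a log2 difference of -0.01 (95% interval -0.79 to 0.77). These intervals leave room for a change of almost the size seen for Itpr1. None of the 4 genes passed the thresholds in the main limma fit. Of the 4, 2 had an unadjusted p under 0.05, as 8.11% of all loci did. Limma-voom on estimated fragments called 1, Itpr1 (unadjusted p = 0.000662, adjusted p = 0.09). Limma on log2 values also called Itpr1 with a pseudocount of 10 (limma unadjusted p = 0.00201) or no filter (0.000816). A stricter filter (0.00248) or an intensity trend (0.00809) likewise gave the call. Scaling mattered in TRAP, since the difference of Itpr1 was -0.57 after quantile normalization and -0.63 with libraries scaled to equal totals, where Cacna1g was at -0.42 (limma unadjusted p = 0.694). Per kilobase, the order in TRAP controls was Car8 (median 671), Calb1 (380), Itpr1 (321) and Cacna1g (29.3), without overlap between neighbours, and in TRAP mutants Itpr1 stood at 150.

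The ratios within a library were also read in TRAP, as a description without a test. Itpr1/Calb1 was 1.44, 2.07 and 2.19 in controls and 0.749, 0.972 and 1.08 in mutants. Itpr1/Car8 was 0.823, 1.29 and 1.44 in controls and 0.588, 0.641 and 0.687 in mutants. Neither ratio overlapped between genotypes, with or without mutant 3. Car8/Calb1 did overlap, at 1.52 to 1.75 in controls and 1.09 to 1.84 in mutants. As a percentage of the summed PC markers, Itpr1 was 40.2% to 66.1% in TRAP controls and 26.1% to 28.8% in TRAP mutants.

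Astroglial markers differed between the same TRAP groups as Itpr1. The sum of the 3 loci was 60.7 to 162 in controls and 358 to 488 in mutants without rapamycin, and 54.3 to 155 in mutants with rapamycin. Gfap was 17.0 to 44.5 in controls, 139 to 224 in mutants and 22.9 to 46.1 in mutants with rapamycin, and Apoe was 32.3 to 108, 203 to 263 and 28.7 to 105. The part of these markers in the Itpr1 values was not tested. The third marker, Tnc, went the other way, with a log2 difference of -2.27 between untreated genotypes, and was at 0 in 4 of the 12 TRAP libraries. The microglial marker Csf1r had a log2 difference of 2.24 between untreated genotypes, without overlap (limma unadjusted p = 0.013), and of -1.52 with rapamycin in mutants (limma unadjusted p = 0.144). Its values were low, at most 5.11 in untreated controls and 9.93 to 15.7 in untreated mutants.

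The third comparison asked what rapamycin does in each genotype. In mutants given rapamycin, Itpr1 was 2684, 2961 and 3714, above all 3 mutants without rapamycin, and within or above the range of untreated controls. As a percentage of library fragments, treated mutants had 0.0507% to 0.0818%. This was above untreated mutants 1 and 2 (0.0282% and 0.0292%) and below untreated mutant 3 (0.166%), so the place of mutant 3 rests on its size factor. The log2 difference between treated and untreated mutants was 1.07 (standard error 0.30, 95% interval 0.35 to 1.80), a 2.10-fold higher level that missed the thresholds narrowly (limma unadjusted p = 0.0102, adjusted p = 0.569). Cacna1g was 213, 251 and 271 in treated mutants, also above all untreated mutants, with a log2 difference of 0.88 (95% interval 0.16 to 1.60, limma unadjusted p = 0.0231). Of 9664 loci tested, 0.476% passed the thresholds in the higher direction and 7.41% were higher without overlap. None of the 4 genes passed in the main limma fit, and limma-voom called Itpr1 (1.04, unadjusted p = 0.000121, adjusted p = 0.053). Limma on log2 values also called Itpr1 with a pseudocount of 10 or 0.1, no filter, a stricter filter or an intensity trend. With libraries scaled to equal totals, the 2 differences were 0.29 and 0.10, and without untreated mutant 3 they were 1.05 (limma unadjusted p = 0.0362) and 0.80 (limma unadjusted p = 0.0795).

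Car8 and Calb1 did not have higher values in treated mutants. Car8 was 1814, 1854 and 2196, a log2 difference of -0.24 from untreated mutants (95% interval -0.96 to 0.47). Calb1 was 1254, 1296 and 1437, a difference of -0.26 (95% interval -1.0 to 0.47). Itpr1/Calb1 was 2.14, 2.28 and 2.59 and Itpr1/Car8 was 1.35, 1.45 and 2.05 in treated mutants. Both ratios lay above those of all untreated mutants.

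In controls given rapamycin, Itpr1 was 2275, 2912 and 3252, which overlapped with untreated controls (log2 difference -0.11, 95% interval -1.37 to 1.15). Car8 was 2014, 2158 and 2318 (-0.27). Cacna1g was 153, 157 and 386, so that 1 library stood above all untreated controls and 2 below them (-0.15). Calb1 was 748, 781 and 1280, below all untreated controls, with a log2 difference of -0.82 (95% interval -2.12 to 0.48, limma unadjusted p = 0.177). The median of all loci in this comparison was -0.31, so that the Calb1 difference relative to it was smaller, and 7.18% of 8682 loci were lower without overlap. The PC marker sum was also lower in treated controls, at 3135 to 4088, and its part in the Calb1 values was not tested. None of the 4 genes passed, against 1.05% of all loci.

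Between genotypes under rapamycin, the 4 genes overlapped. The log2 difference of mutants from controls was 0.15 for Itpr1 (95% interval -1.07 to 1.37), 0.21 for Cacna1g, 0.55 for Calb1 and -0.15 for Car8, where the median of all 8728 loci was 0.32 and 1.23% passed the thresholds. The difference between the 2 genotype effects was tested as an interaction of genotype and rapamycin over all 12 libraries. For Itpr1 it was 1.18 (standard error 0.53, 95% interval 0.01 to 2.35, limma unadjusted p = 0.0481, adjusted p = 0.824), against a median of 0.33 over all loci. For Cacna1g it was 1.03 (95% interval -0.36 to 2.42), for Calb1 0.56 and for Car8 0.03. None passed the thresholds in the main limma fit, where 1.91% of 9174 loci did. Itpr1 passed with no filter, a stricter filter or limma-voom. Averaged over treatments, the genotype difference was -0.44 for Itpr1, -0.30 for Cacna1g, -0.16 for Car8 and 0.27 for Calb1, with 2.38% of loci past the thresholds and a median of 0.25. Averaged over genotypes, the difference with rapamycin was 0.48 for Itpr1, 0.37 for Cacna1g, -0.26 for Car8 and -0.54 for Calb1, with 1.79% past the thresholds and a median of -0.22.

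**Figure D4:**
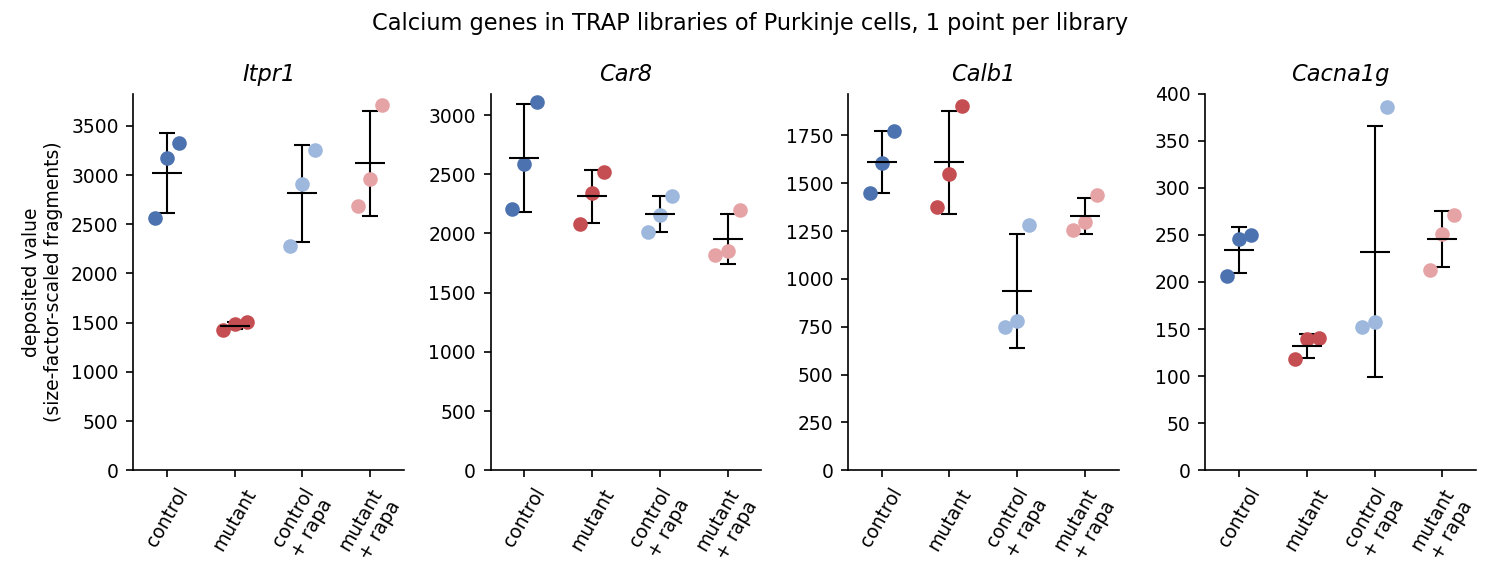
Deposited values of the 4 genes in TRAP libraries, 1 point per library, with the mean and SD (n = 3) of each group. Untreated mutants lie below the other 3 groups for Itpr1, at 1426 to 1503 against 2275 to 3714, and the groups overlap for Car8.

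**Figure D5:**
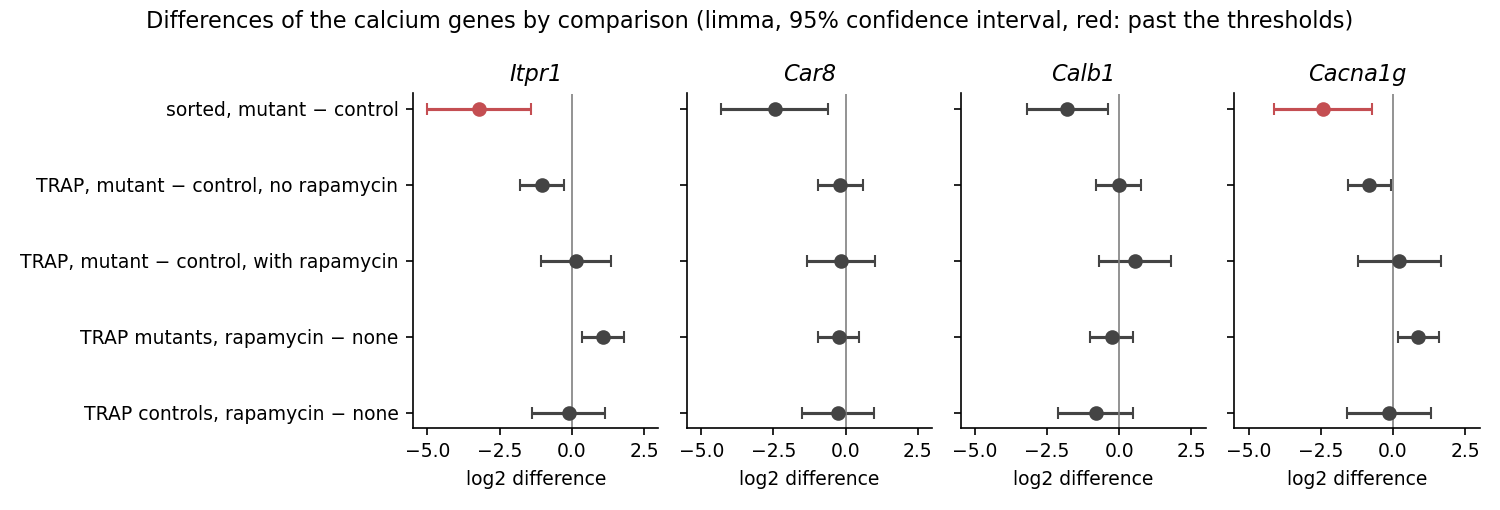
Log2 differences of the 4 genes in 5 comparisons with 95% confidence intervals from limma; red marks differences past the thresholds. Itpr1 and Cacna1g are below 0 in untreated mutants in both assays and above 0 for rapamycin in mutants, and the TRAP intervals of Car8 and Calb1 all include 0.

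Among the other calcium genes, 1 of 20 tested in TRAP passed between untreated genotypes, Atp2a3, which fell by 1.46 (limma adjusted p = 0.292), against 1.01% of all loci in that direction. Its difference with rapamycin in mutants was 1.08 and did not pass, and its interaction was 2.52 and did (limma unadjusted p = 0.00388, adjusted p = 0.345). The calcium channel subunit Cacna2d2 was 0.88 lower in untreated mutants (limma unadjusted p = 0.0265). Of the 20, 8 had a negative difference between untreated genotypes, near the 45.4% of all loci, with a median of 0.12 against 0.07 over all loci. The calcium sensor Ncs1 had a log2 difference of 1.34 between untreated mutants and controls, which did not pass (limma unadjusted p = 0.0161), and it fell by 1.15 with rapamycin in mutants (limma unadjusted p = 0.00629, adjusted p = 0.524). Orai2 was listed at 0 in all 3 controls given rapamycin, so that no fold is given, and its log2(value + 1) was 4.36 ± 0.33 (SD, n = 3) in treated mutants (limma unadjusted p = 8.2e-05, adjusted p = 0.0893). Without rapamycin it was 2.61 ± 1.54 in controls and 3.52 ± 0.69 in mutants (SD, n = 3 each), and the groups overlapped. Orai2 also passed in the interaction (limma unadjusted p = 0.00481, adjusted p = 0.364), as 1.91% of loci did. Averaged over treatments, its genotype difference passed too (limma unadjusted p = 0.00225, adjusted p = 0.265), as for 2.38% of loci. Both fits include the controls at 0.

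The study defined a change in translation efficiency as the log2 difference of mutants from controls in TRAP minus that in sorted PCs. It was 2.28 for Car8 (standard error 1.11), 2.18 for Itpr1 (1.07), 1.79 for Calb1 (0.85) and 1.61 for Cacna1g (1.01), where the median over 9374 loci was 0.19. All 4 genes are on the study's list of genes selected by this measure, so these values are a description. With the sorted libraries of submission MS3005 alone, the change was 0.18 for Itpr1, 0.10 for Car8, 0.03 for Calb1 and 0.08 for Cacna1g. Side by side, the difference in sorted PCs of that submission and the difference in untreated TRAP libraries were -1.21 and -1.03 for Itpr1 and -0.89 and -0.82 for Cacna1g. They were -0.28 and -0.18 for Car8 and -0.04 and -0.01 for Calb1. Itpr1 and Cacna1g had the lowest values in both, and no test was made on these 2 against 2 libraries and the TRAP libraries together.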

How the data were processed

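Libraries were made from total RNA of sorted PCs (10) and TRAP RNA (12). The labels name the SMART-Seq v4 kit for all samples, and the methods name it for sorted PCs and no kit for TRAP. According to the submitters' processing notes and the methods, the authors used Trimmomatic 0.39, STAR 2.7.0f on GRCm38 and Cufflinks 2.2.1. The authors deposited a signal for each locus, made by dividing estimated fragment counts by 1 size factor per library. Between 86.0% and 96.0% of low values were whole multiples of 1 step per library (tolerance 0.01), so the values were not treated as counts, and the step gave the depth in fragments.

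Values were transformed to log2(value + 1), which understates changes of low genes. Limma 3.58.1 (R 4.3.3) was fitted to loci whose mean reached 5 in sorted or 2 in TRAP libraries, using the groups compared, or all 12 TRAP libraries for the interaction and the averaged effects. All 4 genes passed this filter in each comparison. The thresholds were the study's, and adjusted p-values are Benjamini-Hochberg values over all loci of a comparison. Ratios of 2 genes were compared by an exact permutation test over the 10 sorted libraries. The fits between genotypes in sorted and in untreated TRAP libraries were also run on simulated data. The simulation used the same spread setting for all loci and no difference between submissions. It therefore does not show how the fits perform on these libraries.

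The study's supplementary files name 1985 loci by a reference gene, and only these have names here. Coordinates come from GENCODE. Named genes were the 4 genes, calcium list genes with a named locus, and for each of the 4 the 3 named loci with the most similar profile; some of these are not reported here, though the list counts hold them. The genes, the lists and the tests were chosen with earlier results of these data known. Lists of granule cell, oligodendrocyte and interneuron markers had no named locus, and the microglial marker Csf1r and the vascular marker Flt1 were the only loci of their lists, at -0.21 and -0.57 in sorted mutants. The alternatives are given in the closing section. Figures were drawn with matplotlib 3.10.9.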

Additional observations from a re-analysis of the deposited data

Results flagged for a closer look

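The effect of rapamycin on Itpr1 in TRAP differed between genotypes by an interaction of 1.18 on the log2 scale (limma unadjusted p = 0.0481). It failed the Benjamini-Hochberg correction (adjusted p = 0.824), and over the alternatives the adjusted p ranged from 0.238 to 1 and the interaction from 0.36, with libraries scaled to equal totals, to 1.30. Without untreated mutant 3 it was 1.16 (limma unadjusted p = 0.0858). Among 9174 loci tested, the interaction in the main fit was at percentile 74.4. In deposited values, Itpr1 was higher in 3 of 3 treated than in any untreated mutant, as were 7.41% of 9664 loci. Treated and untreated controls overlapped. As a percentage of library fragments, untreated mutant 3 (0.166%) lay above all treated mutants (0.0507% to 0.0818%), and untreated mutants 1 and 2 (0.0282% and 0.0292%) lay below them. Among 20 checks of the 4 genes and their 6 ratios in the sorted groups of 5, no library stood apart from its group.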

How the results depend on the processing

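Itpr1 passed the thresholds in sorted PCs under every alternative except submission number as a term and submission MS3005 alone, which each left 0 of the 4 genes past them. The count of 2 became 1 (Itpr1) with quantile normalization, equal totals, equal upper quartiles, a pseudocount of 0.1, no filter or 144a and 144b averaged, and 3 with an intensity trend, where Car8 also passed (limma unadjusted p = 0.00998), and leaving out 1 library gave from 1 to 4. In TRAP, the count of 0 became 1 (Itpr1) between untreated genotypes and with rapamycin in mutants with a pseudocount of 10, no filter, a stricter filter, an intensity trend or limma-voom (in mutants also with a pseudocount of 0.1), and for the interaction with no filter, a stricter filter or limma-voom.

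Ratio differences within MS3005 were -0.94 (Itpr1/Car8), -1.18 (Itpr1/Calb1), -0.32 (Itpr1/Cacna1g), -0.24 (Car8/Calb1) and 0.62 (Car8/Cacna1g, reversed), and with 144a and 144b averaged -0.75 (Itpr1/Cacna1g) and -0.64 (Car8/Calb1). Without 1 library they ranged from -0.85 to -0.68, -1.59 to -1.26, -0.90 to -0.50, -0.79 to -0.41 and -0.21 to 0.20 in the same order. The change in translation efficiency with MS3005 alone was 0.18 (Itpr1), 0.10 (Car8), 0.03 (Calb1) and 0.08 (Cacna1g).

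Of 624 recomputed log2 differences, 25 reversed, all of them in TRAP and none called. Without rapamycin, Car8 became 0.65 and Calb1 0.48 after quantile normalization, 0.22 and 0.39 with equal totals, and Calb1 0.03 with equal upper quartiles and -0.14 to 0.10 without 1 library. Under quantile normalization Car8 became 0.43 between genotypes with rapamycin, -0.53 in the interaction and 0.64 over both treatments. With equal totals, Itpr1 became -0.27 and Cacna1g -0.21 between genotypes with rapamycin, the interaction became -0.79 (Car8) and -0.26 (Calb1), and Cacna1g became -0.01 for rapamycin over both genotypes. The Car8 interaction was -0.03 by limma-voom. Without 1 library, ranges crossing 0 were -0.10 to 0.15 (Car8 interaction), -0.01 to 0.65 (Cacna1g between genotypes with rapamycin), and -0.59 to 0.08 (Cacna1g) and -0.22 to 0.04 (Itpr1) for rapamycin in controls. The cause was not tested.

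TRAP samples with the same replicate number did not deviate together (correlations of -0.065 to 0.074 across loci). These correlations cannot tell whether such samples share more than a number. With a replicate block, the difference of Itpr1 stayed at -1.03 without rapamycin (limma unadjusted p = 0.0397) and 1.07 with rapamycin in mutants (0.0364), and the count of the 4 genes past the thresholds was 0. Low TRAP depth limits Cacna1g, at 71 fragments or more.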
